A study of Rattus norvegicus with 10 samples.

Results

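The genes described are the cytochrome P450 genes of families CYP2 and CYP3, taken as every array probe set that names a single gene whose symbol starts with Cyp2 or Cyp3 followed by a letter. A probe set is a group of short probes that together read 1 transcript. The rule gave 31 probe sets for 29 genes, of 14217 genes named in this way on the array. Where a gene had several, the brightest on average over the 10 arrays stands for it, and the second probe sets of Cyp2d4 and Cyp2j3 are given apart. A further 3 probe sets that name more than 1 gene of these families were left out, and Cyp2b2, Cyp2d1, Cyp2r1 and Cyp3a62 were not analysed here.

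The study measured liver RNA of male Sprague-Dawley rats, an outbred strain, with 1 array for each animal. The 5 control rats carry the treatment label control, and the other 5 carry the label exposed, which the title ties to short-term contact with waste water of bulk drug makers. Age, dose and exposure time are not given in the sources used here, nor are any alleles or other agents. Whole liver was homogenised, so a lower value in a group cannot be told apart from a lower share of the cells that make the transcript.

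P450 enzymes are haem proteins of the endoplasmic reticulum that insert oxygen into drugs, steroids and fatty acids, with electrons supplied by P450 reductase. Hepatocytes hold most of the body's CYP2 and CYP3 enzymes. Foreign compounds raise many of them through the nuclear receptors CAR (Nr1i3) and PXR (Nr1i2), and in rats the male and female patterns of growth hormone release set several of them apart by sex. Other members of the families work mainly outside liver, in nose, lung, gut, skin or brain.

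The values are log2 expression values, and a difference of 1 is a 2-fold difference. The arrays were alike, with medians of 5.43 to 5.49 and pairwise correlations across probe sets of 0.991 to 0.996. Hepatocyte markers were high, with 7 of 8 measured and member means from 9.63 for Tat to 14.99 for Alb. Lymphocyte markers were low, with 4 of 5 measured and means from 4.48 to 5.78. As a check of the label male, Xist, transcribed in females, read 2.53 to 3.92 over 4 probe sets and the Y-linked Eif2s3y read 8.71 to 9.15.

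The stretches before the start sites of 5 members are shown because the text below turns on these genes: the male-specific Cyp2c11 and female-predominant Cyp2c12 of the CYP2C subfamily, and Cyp3a2, Cyp3a23-3a1 and Cyp3a9 of the CYP3A subfamily. Each is the 250 bases before the annotated start in RefSeq, build GRCr8, printed in the direction of transcription. Cyp2c11 lies on the plus strand at chr1:246174966-246175215 and Cyp2c12 on the minus strand at chr1:248677035-248677284. Cyp3a2 lies on the minus strand at chr12:14343858-14344107, Cyp3a23-3a1 on the minus strand at chr12:14398804-14399053 and Cyp3a9 on the minus strand at chr12:21960161-21960410. Capitals mark exact matches, on either strand, to 5 short patterns: CAAAGTCCA (HNF4 type), GTTAAT (HNF1 type), AGTTCA (nuclear receptor type), CCAAT and TATAAA. No matches overlapped in these 5 stretches (0 overlapping pairs in each).
Cyp2c11: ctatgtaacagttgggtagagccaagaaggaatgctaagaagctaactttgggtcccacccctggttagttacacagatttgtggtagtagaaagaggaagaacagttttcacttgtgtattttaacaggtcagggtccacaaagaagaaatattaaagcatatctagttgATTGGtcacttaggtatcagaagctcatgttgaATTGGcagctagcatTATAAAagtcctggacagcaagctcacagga
Cyp2c12: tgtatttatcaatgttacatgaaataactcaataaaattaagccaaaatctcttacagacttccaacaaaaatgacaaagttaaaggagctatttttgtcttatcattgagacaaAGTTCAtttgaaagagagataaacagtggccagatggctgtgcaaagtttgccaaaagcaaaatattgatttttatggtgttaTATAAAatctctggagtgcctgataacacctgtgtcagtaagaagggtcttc
Cyp3a2: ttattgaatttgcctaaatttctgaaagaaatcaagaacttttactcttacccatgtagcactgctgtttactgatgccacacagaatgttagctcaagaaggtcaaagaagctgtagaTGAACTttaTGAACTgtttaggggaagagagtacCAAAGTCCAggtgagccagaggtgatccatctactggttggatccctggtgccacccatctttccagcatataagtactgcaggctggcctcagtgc
Cyp3a23-3a1: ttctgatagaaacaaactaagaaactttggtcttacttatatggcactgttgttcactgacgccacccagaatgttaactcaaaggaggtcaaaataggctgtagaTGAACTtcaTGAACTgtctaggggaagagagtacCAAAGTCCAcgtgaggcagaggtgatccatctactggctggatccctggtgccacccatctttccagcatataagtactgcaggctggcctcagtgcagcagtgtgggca
Cyp3a9: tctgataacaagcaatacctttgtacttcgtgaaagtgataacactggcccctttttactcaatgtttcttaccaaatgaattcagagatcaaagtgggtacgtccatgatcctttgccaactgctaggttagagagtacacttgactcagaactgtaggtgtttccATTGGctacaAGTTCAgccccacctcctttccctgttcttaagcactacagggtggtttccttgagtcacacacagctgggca

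The stretches of Cyp3a2 and Cyp3a23-3a1 held the same arrangement, each with 2 of the AGTTCA matches as direct repeats read on the opposite strand (TGAACT) and 1 HNF4 type match downstream of them. In Cyp3a2 these began at -131, -122 and -97 from the start site, and in Cyp3a23-3a1 at -144, -135 and -110. Direct repeats of such sequences are the kind of element that PXR binds with its partner RXR, as background. The HNF4 type pattern was held by 2 of 27 members with a RefSeq stretch, these same genes, against 0.338% of 33469 stretches of the same length. These 2 genes are adjacent in the annotation and their stretches are much alike, so their matches do not count as independent. AGTTCA was held by 9 of 27 members, with all 4 CYP3A genes among them, against 12.2% of all stretches. Those 9 include the neighbours Cyp3a2 with Cyp3a23-3a1, Cyp2c12 with Cyp2c13 and Cyp2j4 with Cyp2j3, so they do not count as 9 independent genes. CCAAT was held by 13 of 27 against 34.0%, TATAAA by 9 of 27 against 12.9% and GTTAAT by 3 of 27 against 6.45%. TATAAA was found before both Cyp2c11 and Cyp2c12, starting at -31 and -52. A match describes letters only.

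Most members gave bright signals. Of the 29 genes, 24 were brighter on average than the middle of the array (a mean of 5.47), and 10 had a mean over 13, a range that holds 161 of 31042 probe sets. Brightness differs between probe sets for the same amount of RNA, so the order below ranks array values and not transcript amounts.

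**Figure D1:**
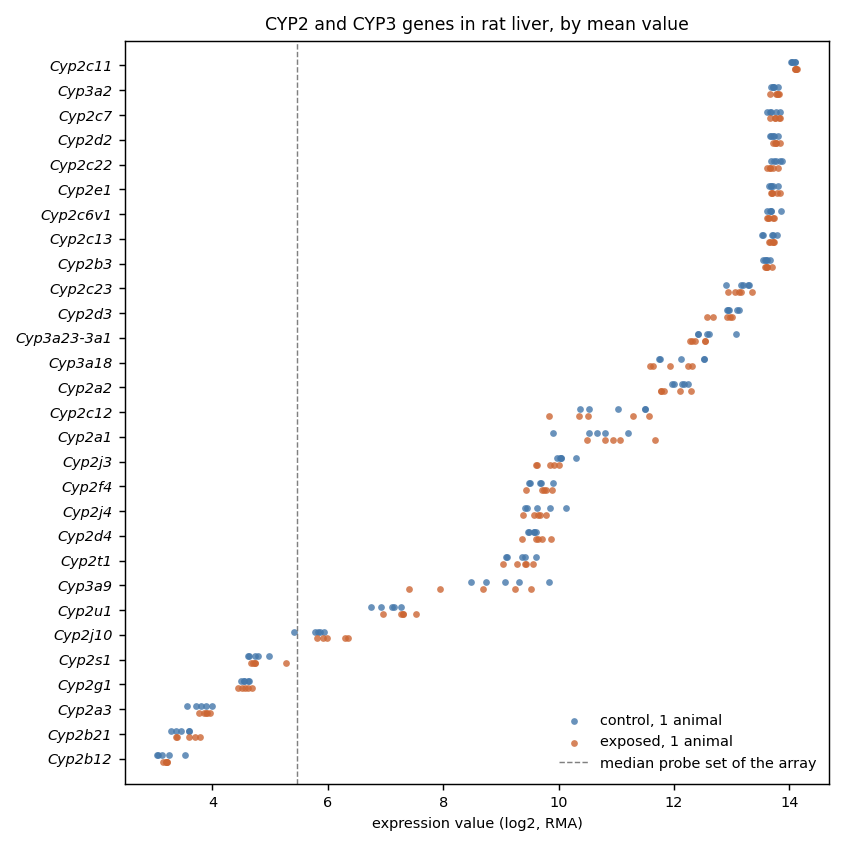
Expression value (log2) of each of 29 CYP2 and CYP3 genes in each of 5 control and 5 exposed rats, with genes sorted by mean over the arrays; the dashed line is the median probe set at 5.47. A group of 9 genes sits between 13.6 and 14.1 with points close together, while Cyp3a9, Cyp2c12 and Cyp2a1 spread widely in both groups.

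The CYP2C subfamily, which metabolises steroids, arachidonic acid and many drugs, was bright throughout, with 7 members between 10.85 and 14.09. Cyp2c11, the predominant P450 of male rat liver, had the highest value of all members. It read 14.04, 14.09, 14.10, 14.05 and 14.03 in control animals 1 to 5 and 14.12, 14.11, 14.14, 14.09 and 14.10 in exposed animals 1 to 5. Its lowest animal lay above the highest animal of every other member. The next 8 members in order were Cyp3a2, Cyp2c7, Cyp2d2, Cyp2c22, Cyp2e1, Cyp2c6v1, Cyp2c13 and Cyp2b3, with means from 13.75 down to 13.61. Their animals overlapped, as Cyp3a2 ranged from 13.66 to 13.82 and Cyp2b3 from 13.54 to 13.70, so the order among them was within the spread between animals. Cyp2c23, an epoxygenase of arachidonic acid, followed at 13.14.

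The members that follow, from other subfamilies, had means from 13.74 for Cyp2d2 down to 9.33 for Cyp2t1. Cyp2e1, which oxidises ethanol and small solvents, read 13.65 to 13.80 in controls and 13.69 to 13.83 in exposed animals. The CYP2D members Cyp2d2 and Cyp2d3, relatives of the human debrisoquine hydroxylase, had means of 13.74 and 12.92, and Cyp2d4, known from brain, had 9.59. The steroid hydroxylases Cyp2a2 and Cyp2a1 had means of 12.03 and 10.81. Cyp2f4, a naphthalene-activating enzyme known from lung, had 9.68, and Cyp2t1 had 9.33.

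Signals were dimmest for 5 members. Means were 3.19 for Cyp2b12 of sebaceous glands, 3.51 for Cyp2b21, 3.83 for Cyp2a3 of the airways, 4.57 for Cyp2g1 of the olfactory lining and 4.79 for Cyp2s1 of epithelia, all 5 below the median probe set. Whether these transcripts were present was not tested, as the files give no detection calls. Cyp2b3, Cyp2b21 and Cyp2b12 lie in the same cluster of the GRCr8 annotation, yet Cyp2b3 read at least 13.54 in every animal and the others at most 3.78.

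The comparison of exposed with control animals asks whether the effluent changed these enzymes, many of which respond to drugs. None of the 29 genes passed the test: limma gave 0 at an adjusted p of 0.05, against 0.0% of all 31042 probe sets, with adjusted p values of 0.879 to 0.995. Differences, exposed minus control, ran from -0.53 for Cyp3a9 to 0.37 for Cyp2a1. The value was higher in exposed animals for 16 genes and lower for 13, and 55.2% higher compares with 52.0% over all probe sets. The median difference was 0.03, and over all probe sets it was 0.00.

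**Figure D2:**
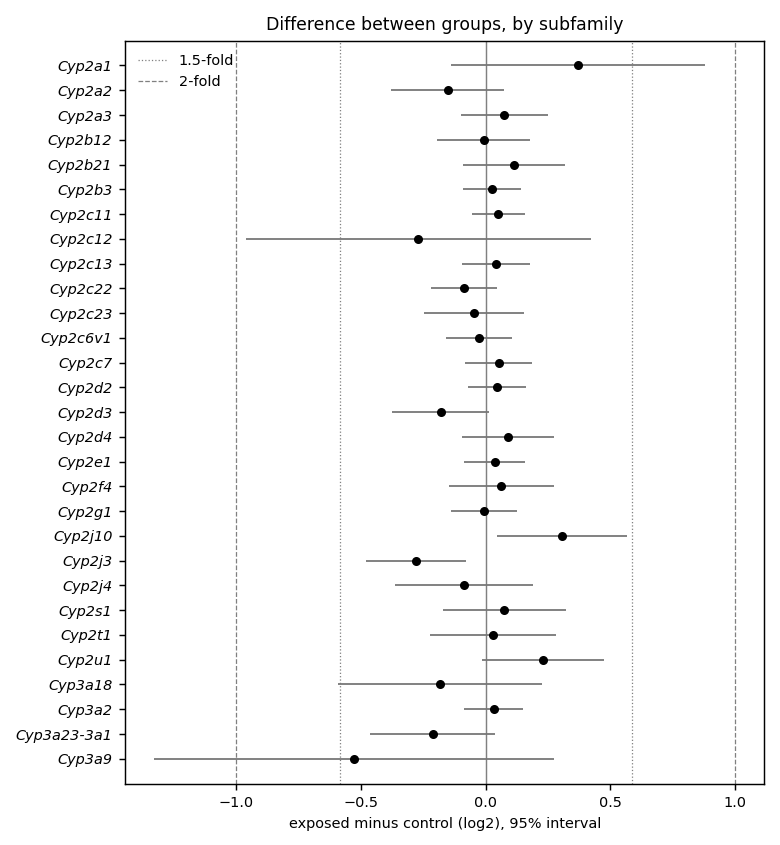
Difference between exposed and control rats (log2, exposed minus control) with 95% intervals from limma for 29 genes grouped by subfamily; dotted lines stand at 1.5-fold and dashed lines at 2-fold. Intervals of 27 genes include 0, those of Cyp2j3 and Cyp2j10 do not, and the widest belong to Cyp3a9, Cyp2c12 and Cyp2a1.

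The difference was under 0.1 in size for 18 genes (62.1%, against 71.4% of all probe sets). A 1.5-fold change either way lay outside the 95% interval for 25 of 29 genes (86.2%, against 97.3% of all probe sets). The other 4 were Cyp2a1, Cyp2c12, Cyp3a18 and Cyp3a9. A 2-fold change lay outside it for 28 genes (96.6%, against 99.5%), and the exception was Cyp3a9. These counts take 1 probe set per gene. On the second probe set of Cyp2d4 the interval (-1.12 to -0.16) included a 2-fold lower value. On that of Cyp2j3 the interval (-0.74 to -0.15) included a 1.5-fold lower value. Among the 25 were all 10 members with a mean over 13 and all 5 with a mean under 5. How far signals at these ends follow transcript amount was not tested, so the intervals there bound array values. At an unadjusted p under 0.05 limma gave 2 members, Cyp2j3 and Cyp2j10, which is 6.90% against 5.46% of all probe sets. Of these, 1 was higher in exposed animals, where 3.07% of all probe sets were, and 1 lower, where 2.39% were. That count was 1 without control animal 1, 4 without control animal 3 and 4 without exposed animal 4. It takes 1 probe set per gene. The second probe sets of Cyp2j3 and Cyp2d4, which it leaves out, were both lower in exposed animals with an unadjusted limma p of 0.00616 and 0.0135. For none of the 29 did the groups separate completely (0 members, against 0.892% of all probe sets).

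The CYP2J genes, whose enzymes turn arachidonic acid into epoxides, held both small p values, in opposite directions. Cyp2j3 read 9.97, 10.05, 10.03, 10.30 and 10.04 in control animals 1 to 5 and 9.92, 10.01, 9.85, 9.60 and 9.62 in exposed animals 1 to 5. Exposed animals 4 and 5 were lowest, and only exposed animal 2 reached into the control range. The difference was -0.28 ± 0.09 (SE; 95% interval -0.48 to -0.08), with an unadjusted limma p of 0.0106 and an adjusted p of 0.879.

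A second probe set of Cyp2j3 had a difference of the same sign. Its values were 7.25, 7.48, 7.19, 7.87 and 7.58 in controls and 7.19, 7.19, 7.16, 6.69 and 6.92 in exposed animals. Exposed animal 4 was lowest and control animal 4 highest on both probe sets. The difference was -0.44 ± 0.13 (SE; -0.74 to -0.15), with an unadjusted limma p of 0.00616 and an adjusted p of 0.879. Leaving out single arrays kept it between -0.51 and -0.34, and kept the brighter probe set between -0.33 and -0.22.

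Cyp2j10, of the same genome cluster, read 5.42, 5.87, 5.94, 5.78 and 5.83 in controls and 6.30, 6.35, 5.92, 5.98 and 5.82 in exposed animals. Control animal 1 was lowest and exposed animals 1 and 2 highest, and the groups overlapped. The difference was 0.31 ± 0.12 (SE; 0.05 to 0.57), with an unadjusted limma p of 0.0248 and an adjusted p of 0.879, and it was 0.22 without control animal 1 (unadjusted limma p 0.0691). Cyp2j4, which lies between Cyp2j10 and Cyp2j3, differed by -0.09 (-0.36 to 0.19), and by 0.02 without control animal 1.

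**Figure D3:**
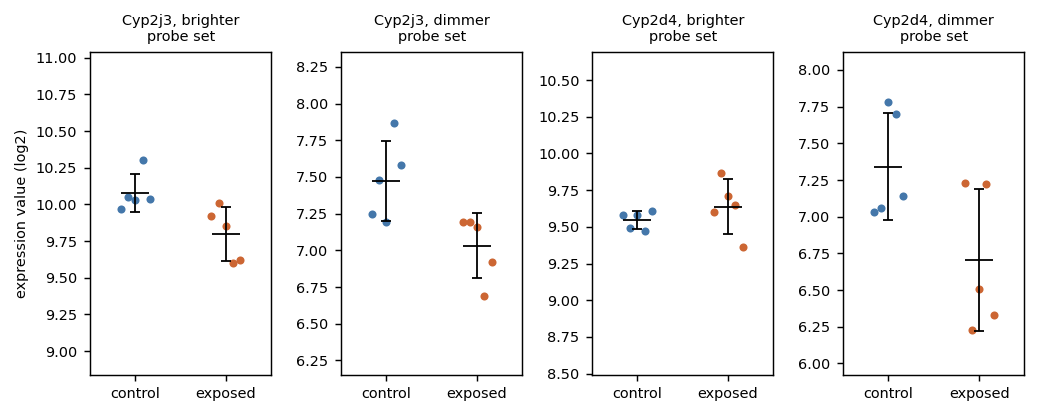
Expression value (log2) of each rat on both probe sets of Cyp2j3 and of Cyp2d4; bars are the mean ± SD of 5 animals, and every panel spans the same height. Exposed means lie below control means on both Cyp2j3 probe sets, by 0.28 and 0.44, while the Cyp2d4 probe sets differ by 0.09 and -0.64.

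Cyp2d4 shows the opposite case, with probe sets that differed in sign. The brighter one read 9.58, 9.49, 9.58, 9.47 and 9.61 in controls and 9.60, 9.87, 9.71, 9.65 and 9.36 in exposed animals, a difference of 0.09 (-0.09 to 0.27) that ran from 0.03 without exposed animal 2 to 0.16 without exposed animal 5. The dimmer one read 7.03, 7.06, 7.78, 7.70 and 7.14 in controls and 7.23, 6.23, 6.51, 7.22 and 6.33 in exposed animals. On it, exposed animals 2, 3 and 5 lay below all controls while exposed animals 1 and 4 lay among them. Its difference was -0.64 ± 0.22 (SE; -1.12 to -0.16), with an unadjusted limma p of 0.0135 and an adjusted p of 0.879. Exposed animal 2 was highest on the brighter and lowest on the dimmer probe set. Which transcripts each one reads was not tested.

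The CYP3A genes encode broad drug and steroid hydroxylases and are the classic targets of PXR. Cyp3a2, a male-predominant form, differed by 0.03 (-0.09 to 0.15), with all animals between 13.66 and 13.82. Cyp3a23-3a1, induced by dexamethasone and other PXR ligands, read 12.61, 12.42, 12.42, 12.57 and 13.07 in controls and 12.36, 12.54, 12.28, 12.54 and 12.31 in exposed animals. Control animal 5 stood above all others, and the remaining animals of both groups overlapped. The difference was -0.21 ± 0.12 (SE; -0.46 to 0.04) and was -0.10 without that animal.

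Cyp3a18 read 12.52, 11.74, 12.13, 11.75 and 12.52 in controls and 11.94, 12.25, 11.59, 12.31 and 11.64 in exposed animals, a difference of -0.18 (-0.59 to 0.23) that became -0.09 on leaving out either control animal 1 or control animal 5. Cyp3a9 had the lowest CYP3A values and the widest range of any member, with 8.49, 9.32, 8.75, 9.07 and 9.83 in controls and 9.53, 9.25, 7.95, 8.69 and 7.41 in exposed animals. Its highest animal exceeded its lowest 5.34-fold. Exposed animals 3 and 5 lay below every control, and exposed animal 1 lay above all controls but 1. The difference of -0.53 ± 0.37 (SE; -1.33 to 0.27) became -0.24 without exposed animal 5 and -0.77 without exposed animal 1.

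Control animal 5 had the highest value of all 10 animals for 3 of the 4 CYP3A genes, Cyp3a9, Cyp3a18 and Cyp3a23-3a1, and for Cyp2c6v1. Exposed animal 3 was the lowest for Cyp3a18 and Cyp3a23-3a1. Control animal 5 also had the highest ratio of 3' to 5' probe sets for Gapdh and beta-actin, a sign of RNA breakdown, at 0.73 on the log2 scale against 0.49 to 0.63 in the other animals. With this ratio in the fit, the differences were -0.10 for Cyp3a23-3a1, -0.10 for Cyp3a18 and -0.20 for Cyp3a9. Nr1i3, the gene of CAR, was highest in control animal 5, at 8.20, and lowest in exposed animal 5, at 6.91. Nr1i2, the gene of PXR, had another order. It read 8.95 in control animal 5, and was highest in control animal 4, at 9.05, and lowest in control animal 2, at 8.66. Of 6 Kupffer cell markers 4 were measured, and all 4 (Cd163, Clec4f, Cd68 and Cd5l) were lowest of the 10 animals in control animal 5. Exposed animal 3, the lowest for Cyp3a18 and Cyp3a23-3a1, was next lowest on all 4, at 6.46, 10.11, 7.97 and 9.20. Exposed animal 5, the lowest for Cyp3a9, read 7.19, 10.92, 8.92 and 10.13 on the 4 markers. The mean level of the 4 markers ranged from 8.18 to 9.39 in controls and from 8.44 to 9.51 in exposed animals. None of the 4 is at the dim end of the array. The part of RNA quality, CAR, PXR and Kupffer cells in these values was not tested.

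None of the genes set apart by sex in rat liver passed the test. The male-predominant Cyp2c11 and Cyp2c13 had SDs between animals, pooled within groups, of 0.026 and 0.084, in the range over 13 where probe sets in general varied little. Cyp2c11 differed by 0.05 (-0.05 to 0.16) and Cyp2c13 by 0.04 (-0.10 to 0.18). In limma the variance of each probe set is drawn towards a value shared by all. For Cyp2c11 the SE of 0.049 was larger than the SD of 0.026, so its interval is wider than these animals' own spread gives. The male-predominant Cyp2a2 read 12.00, 11.96, 12.24, 12.14 and 12.18 in controls and 12.29, 11.78, 11.77, 12.10 and 11.82 in exposed animals, a difference of -0.15 (-0.38 to 0.08). Exposed animals 2, 3 and 5 lay below all controls and exposed animal 1 above them, and without exposed animal 1 the difference was -0.24 (unadjusted limma p 0.0211).

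Cyp2c12, the female-predominant steroid sulfate hydroxylase, was well within the upper part of the array in these males, at 10.85 (the 96.9th percentile of probe sets). It read 11.03, 11.49, 11.49, 10.52 and 10.38 in controls and 10.51, 9.83, 10.36, 11.29 and 11.57 in exposed animals, a 3.35-fold range. Both groups held high and low animals, and the difference of -0.27 ± 0.32 (SE; -0.96 to 0.42) was -0.05 without exposed animal 2 and -0.53 with the RNA quality ratio in the fit. Its SD of 0.62 exceeded that of 99.5% of all probe sets. Cyp2c12 shares much sequence with its relatives, and whether its probes read them too was not tested.

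Cyp2a1, a female-predominant testosterone hydroxylase, read 10.67, 9.91, 11.21, 10.53 and 10.81 in controls and 10.50, 11.06, 11.68, 10.80 and 10.94 in exposed animals. Control animal 2 was lowest and exposed animal 3 highest, 3.42-fold apart, and the groups overlapped. The difference of 0.37 ± 0.23 (SE; -0.14 to 0.88) ran from 0.19 without control animal 2 to 0.52 without control animal 3 (unadjusted limma p 0.0419). Control animal 3 was high among controls for both Cyp2a1 and Cyp2c12, while exposed animal 5 led for Cyp2c12 and was 0.05 below its group mean for Cyp2a1.

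**Figure D4:**
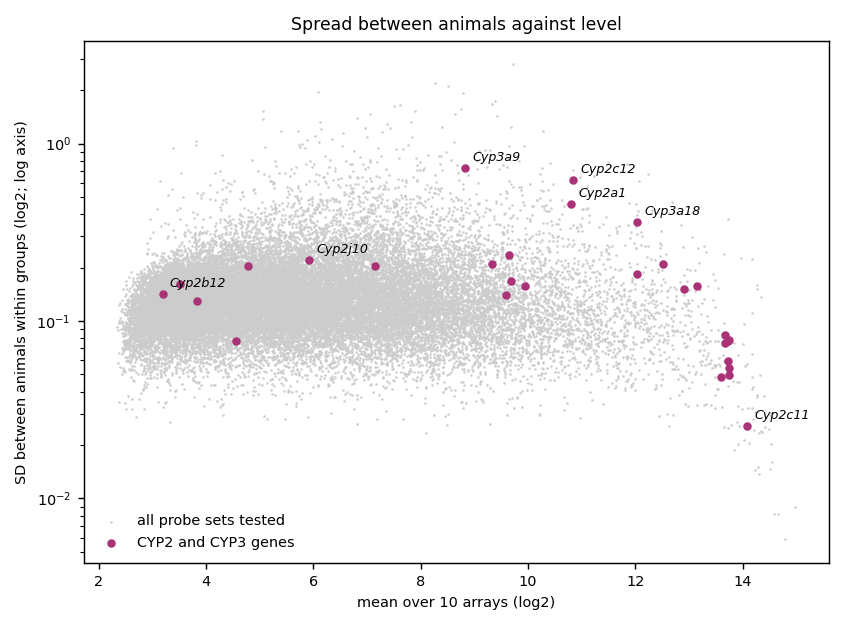
SD between animals within groups (log2 values, log axis) against mean value (log2) for 31042 probe sets in grey and 29 CYP2 and CYP3 genes in purple. Cyp3a9, Cyp2c12, Cyp2a1 and Cyp3a18 lie near the top of the cloud for their level, and the brightest members, down to Cyp2c11 at 0.026, lie in the zone over 13 where nearly all probe sets vary little.

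Members lay at both ends of the distribution of spread. The SD was above the 90th percentile of all probe sets for 5 genes (17.2%, against 10.0%): Cyp3a9, Cyp2c12, Cyp2a1, Cyp3a18 and Cyp2j4. It was below the 10th percentile for 7 genes (24.1%, against 10.0%), all of them among the brightest. The highest animal exceeded the lowest by over 2-fold for 3 genes (10.3%, against 3.69%).

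Bright probe sets varied little. Those with a mean over 13 had a median SD of 0.059, against 0.128 for all. The 10 members in that zone had a median SD of 0.067, from 0.026 for Cyp2c11 to 0.157 for Cyp2c23, and 4 of the 10 were under the median of the zone. How far signals there still follow transcript amount was not tested. The intervals of all 10, with Cyp2c11, Cyp3a2, Cyp2d2, Cyp2e1 and Cyp2b3 among them, therefore bound array values. The 11 members with means from 9 to 13 had a median SD of 0.210, and all 11 exceeded the median of 0.116 over 2799 probe sets in that range.

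**Figure D5:**
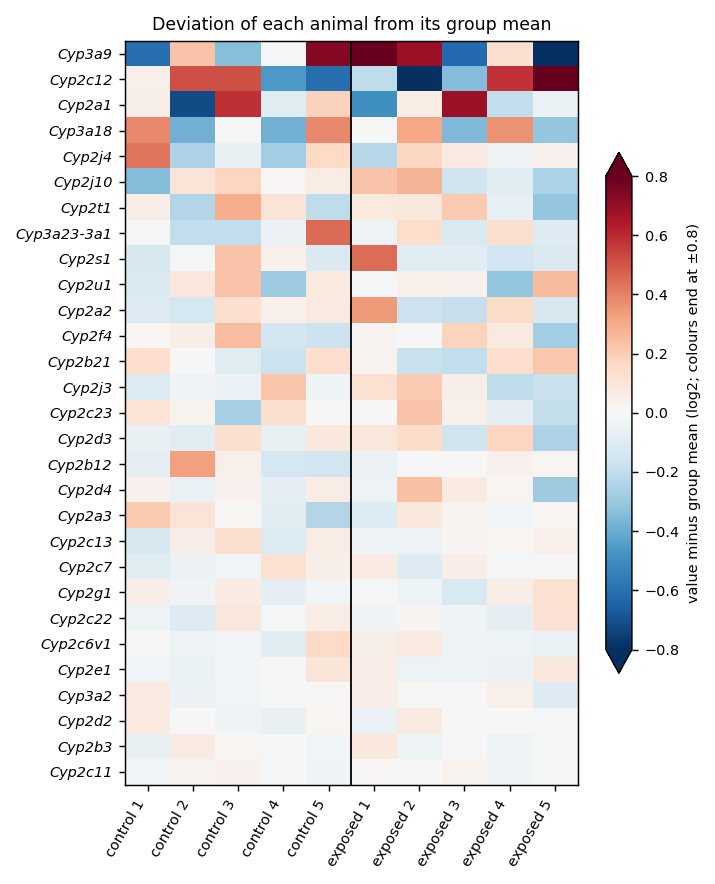
Deviation of each rat from its group mean (log2, colours end at ±0.8) for 29 genes sorted by SD between animals, with controls left and exposed rats right of the line. Cyp3a9 is highest in control animal 5 among controls and in exposed animal 1 among exposed rats, while the rows at the bottom, from Cyp2e1 down, stay close to 0 in every animal.

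The animals did not share one order across the genes, and each was above its group mean for 8 to 20 of the 29. Control animal 3 and exposed animal 5 were each the highest of 10 for 5 genes, and exposed animal 4 for 0. Exposed animal 5 was also the lowest for 6 genes, Cyp2d3, Cyp2d4, Cyp2f4, Cyp2t1, Cyp3a2 and Cyp3a9, while it was the highest for Cyp2b21, Cyp2c12, Cyp2e1, Cyp2g1 and Cyp2u1. The median deviation of an animal from its group mean over the 29 genes ran from -0.06 in control animal 4 to 0.06 in control animal 5.

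The remaining genes include Cyp2d3 and Cyp2u1, whose intervals ended close to 0. Cyp2d3 read 12.94, 12.92, 13.13, 12.95 and 13.09 in controls, and exposed animals 1, 2, 3 and 5 read 12.92, 12.97, 12.67 and 12.58. Exposed animals 2 and 4 lay among the controls and exposed animal 1 at the lower edge of their range. Exposed animals 3 and 5 were below the rest. The difference was -0.18 (-0.37 to 0.02). With the RNA quality ratio in the fit it was -0.11, and without exposed animal 4 it was -0.22 (unadjusted limma p 0.0326). Cyp2u1, a fatty acid hydroxylase, read 6.93, 7.14, 7.27, 6.75 and 7.12 in controls and 7.26, 7.31, 7.31, 6.96 and 7.52 in exposed animals, with overlapping groups and a difference of 0.23 (-0.01 to 0.47) that was 0.31 without exposed animal 4 (unadjusted limma p 0.0121). Cyp2b21 read 3.59, 3.46, 3.36, 3.28 and 3.59 in controls and 3.60, 3.39, 3.37, 3.70 and 3.78 in exposed animals, with overlapping groups and a difference of 0.11 (-0.09 to 0.32). Cyp2e1, Cyp2c7, the retinoid hydroxylase, and the phenobarbital-inducible Cyp2c6v1 differed by 0.04 (-0.08 to 0.16), 0.05 (-0.08 to 0.18) and -0.03 (-0.16 to 0.10). Cyp2c22 differed by -0.09 (-0.22 to 0.05), Cyp2c23 by -0.04 (-0.25 to 0.16), Cyp2d2 by 0.05 (-0.07 to 0.16) and the constitutive Cyp2b3 by 0.03 (-0.09 to 0.14). Animals overlapped for both, with Cyp2d2 at 13.66 to 13.80 in controls and 13.71 to 13.84 in exposed animals, and Cyp2b3 at 13.54 to 13.66 and 13.58 to 13.70. The other 5 genes, Cyp2a3, Cyp2b12, Cyp2f4, Cyp2g1 and Cyp2s1, differed by -0.01 to 0.08, and Cyp2t1 by 0.03.

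Partners and regulators of the enzymes were read from the same fit. Of 12 genes for receptors, electron donors and haem metabolism, all 12 were measured and limma called 0, with 0 at an unadjusted p under 0.05, 5 higher and 7 lower in exposed animals, against 5.46% with such a p and 52.0% higher over all probe sets. The median difference was -0.01, against 0.00 over all probe sets. Hnf4a, a nuclear receptor that maintains hepatocyte genes, differed by -0.17 (-0.47 to 0.14) and Por, the P450 reductase, by -0.24 (-0.69 to 0.22). Alas1, the rate-limiting enzyme of haem synthesis, ranged from 9.03 to 10.61 between animals.

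Other targets of CAR and PXR were measured for 13 genes of 17. By limma 0 of them passed and 0 had an unadjusted p under 0.05, with 6 higher and 7 lower, and a median difference of -0.01, against 5.46% with such a p and 52.0% higher over all probe sets. Gstm1, a glutathione transferase, differed by 0.13 (-0.0048 to 0.26) and Sult2a1, a sulfotransferase that was dim at 2.99, by 0.08 (-0.05 to 0.21). Of 8 measured genes among 10 of the CYP1 and CYP4 families, limma called 0, with 1 at an unadjusted p under 0.05, 2 higher and 6 lower, and a median difference of -0.10. Over all probe sets 5.46% had such a p and 52.0% were higher. Cyp1b1, which activates polycyclic compounds, was the 1 gene of the 8 whose groups did not overlap (against 0.892% of all probe sets). It read 4.95 to 5.06 in controls and 4.81 to 4.93 in exposed animals, a difference of -0.10 (-0.22 to 0.02). The gene was named after its values were seen. Its mean of 4.94 lay below the median probe set (5.47), and whether its transcript was present was not tested. Cyp4f4, a fatty acid hydroxylase, differed by -0.24 (-0.44 to -0.04) and Cyp4a8 by -0.62 (-1.25 to 0.01).

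Markers of other liver cells were called in 0 cases by limma. By count of higher and lower, Kupffer markers gave 4 and 0 (Cd5l 0.36, Clec4f 0.22), endothelial markers 3 and 1 (Pecam1 -0.09, Lyve1 0.07), bile duct markers 1 and 2 (Krt19 -0.09, Krt7 -0.03) and stellate markers 2 and 2 (Des 0.16, Lrat 0.06), each with 0 at an unadjusted p under 0.05. Lymphocyte markers gave 3 and 1 (Cd3d 0.20, Nkg7 0.14), with 1 at such a p, and hepatocyte markers 2 and 5 (Hnf4a -0.17, Tat -0.14), with 0. Over all probe sets limma called 0.0%, 5.46% had such a p and 52.0% were higher.

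Relations between members across animals were computed on deviations from the group mean for 4 pairs, and none passed a permutation test after adjustment over the 4. For Cyp2c11 with Cyp2c13, Pearson's r was 0.42 (permutation p 0.223, adjusted 0.447) and Spearman's rho 0.26 (p 0.469, adjusted 0.625), and r was 0.10 without the 2 animals farthest out. For Cyp2e1 with Cyp2c11, r was -0.42 (permutation p 0.222, adjusted 0.447) and rho -0.38 (p 0.279, adjusted 0.557), and r was -0.05 without 2 animals. For Cyp3a23-3a1 with Por, r was 0.24 (permutation p 0.519, adjusted 0.569) and rho 0.08 (p 0.838, adjusted 0.838), with r at -0.34 without 2 animals. For Cyp2c11 with Cyp3a2, r was -0.21 (permutation p 0.569, adjusted 0.569) and rho -0.43 (p 0.219, adjusted 0.557), with r at -0.21 without 2 animals. The further 3 planned pairs all involved Cyp2b2.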

How the data were processed

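Liver RNA of 10 rats was hybridised to Affymetrix 3' expression arrays. The authors deposited 1 value per probe set and array, on a log2 scale. The submitters' processing notes name RMA and R 2.8.1, without parameters, and the annotation version is not given in the sources used here. As a method, RMA corrects background and normalizes arrays to one another, which removes shifts shared by most genes. The scale was inferred from the range of values, 2.19 to 15.0. Of 31099 probe sets, 57 array controls were left out and 31042 tested.

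Genes were named from the platform annotation. All 29 members were found by Entrez number in a RefSeq table for GRCr8, with 0 symbols changed, and 27 had a promoter sequence there. Groups were compared with limma 3.58.1 in R 4.3.3 (lmFit, eBayes, two-sided, Benjamini-Hochberg over all probe sets, threshold 0.05), which also gave SEs and 95% intervals. The fit was tested on simulated data. Correlations used 100000 permutations. The number of arrays limits precision. The labels do not state that same-numbered animals are pairs, so numbers were not taken as pairs in the main fit. As a check, same-numbered animals did not deviate together (residual correlations -0.07 to 0.09).

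Members and lists were chosen with earlier results of these data known. Named with values were a fixed set of well-known enzymes, the 4 genes with the smallest p in each direction, the 4 with the largest and the 3 with the smallest SD, and 2 genes from each other list. Other members are given by value. The alternatives were a replicate block, array weights, quantile normalization, centring, a filter on low values, a trended robust prior, RNA quality as a covariate, averaging of a gene's probe sets and leaving out each array.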

Additional observations from a re-analysis of the deposited data

Results flagged for a closer look

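In 3 of 62 groups of 5 animals, 1 value was separated from its neighbour by a larger share of the group's range than Dixon's 95% criterion allows, and chance gives about 3.1 such groups (1 in 20). Exposed animal 1 read 13.70 for Cyp2b3 (others 13.58 to 13.62) and 5.27 for Cyp2s1 (others 4.67 to 4.74). Control animal 4 read 10.30 on the brighter probe set of Cyp2j3 (others 9.97 to 10.05), and without this animal the Cyp2j3 difference was -0.22.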

How the results depend on the processing

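Under every alternative run, leave-one-out included, 0 of the members passed the threshold, with a smallest adjusted limma p of 0.746. The count of members higher in exposed animals was 13 of 24 under the filter on low values and otherwise 15 to 18 of 29, with 16 to 18 when single arrays were left out. The median member difference was 0.0050 to 0.034 when single arrays were left out. The count of members at an unadjusted p under 0.05 was 4 with the replicate block (p 0.0475 for Cyp2a1 and 0.0114 for Cyp2u1) and 1 to 4 when single arrays were left out. The cause was not tested. Over all probe sets, 0 to 1 passed when single arrays were left out, the 1 without exposed animal 1. Of 29 genes, 21 kept the sign of their difference throughout. Cyp2c6v1 changed sign with RNA quality as a covariate (0.0069) and with quantile normalization (0.00064), and Cyp2d4 when its probe sets were averaged (-0.27). Ranges over left-out arrays that crossed 0 were -0.046 to 0.075 for Cyp2b12, -0.11 to 0.0035 for Cyp2c23, -0.049 to 0.011 for Cyp2c6v1, -0.038 to 0.023 for Cyp2g1, -0.16 to 0.022 for Cyp2j4, -0.037 to 0.13 for Cyp2s1 and -0.031 to 0.11 for Cyp2t1. Signal over background is unknown for the 5 dimmest genes.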
